A study of Mus musculus with 6 samples.

Results

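The Hox genes are 39 protein-coding genes in 4 clusters of the mouse genome, and they were taken here as all genes whose RefSeq symbol is Hoxa, Hoxb, Hoxc or Hoxd followed by a number. They are 39 of 21631 protein-coding genes placed on an autosome or on X, with 11 in HoxA, 10 in HoxB, 9 in HoxC and 9 in HoxD. Each cluster was read as one window that ran from its outermost genes to 10 kb beyond them. In the RefSeq coordinates of GRCm38.p6, whose primary chromosomes are those of the authors' build mm10, the HoxA window was chr6:52145367-52270880 (126 kb, genes on the minus strand). The HoxB window was chr11:96184316-96378254 (194 kb), the HoxC window chr15:102911131-103046856 (136 kb) and the HoxD window chr2:74658225-74775142 (117 kb), all with genes on the plus strand.

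Chromatin accessibility was measured by Omni-ATAC, in which a transposase inserts sequencing adapters into open DNA, in 3 libraries of macrophages from old mice (over 78 weeks) and 3 libraries from young mice (3 weeks). Both groups were wild-type (WT) BALB/c mice, and no other allele or treatment is given in the labels. The cells were adherent cells grown out of crushed limb bones in culture medium with serum, had the surface phenotype F4/80+ CD169+, and entered each library as 50000 cells. Nothing in the labels says that the libraries of a group came from separate animals. The p-values therefore set a difference only against the spread of these libraries, and that spread may be technical.

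Hox genes encode homeodomain transcription factors whose order along each cluster follows the order in which they act along the body axis and the limbs. Genes with the same number in different clusters are paralogues. Polycomb complexes keep the clusters silent and trithorax complexes keep them active, and factors of the TALE class (Meis, Pbx and Pknox proteins) bind DNA together with Hox proteins. In blood, HoxA genes such as Hoxa9 and Hoxa10 are known for their part in progenitor cells and in myeloid leukaemia, and connective tissue cells keep a Hox pattern that follows their position in the body.

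The deposited lists held 245667, 227978 and 215947 peaks in the old libraries and 243924, 223018 and 254410 in the young libraries, and covered 48.2 to 63.7 Mb in old and 52.3 to 66.0 Mb in young libraries. Read depth is unknown, a longer list holds weaker peaks, and a stretch without a peak is one where the caller made no call. Cluster coverage, regions, locus fits and counts of start-site peaks are therefore given for the deposited lists and for lists of equal length. The equal-length lists were cut in every library to the 50000 peaks that rank first by −log10 q, the caller's significance score. Unless another list is named, values per start, promoter window and hairpin, percent coverage of loci and the fit of start windows are of the deposited lists. Of the 12 macrophage marker genes, none was at 0 covered bases in all libraries on either kind of list, and all 6 with a start-site window had a peak there in every deposited list. Neither count is particular to these markers. The 7 B cell markers also had none at 0 on either kind of list, and all 6 stem and progenitor markers with a window had a start-site peak in every deposited list. On the equal-length lists 5 of the 6 macrophage starts and 1 of the 6 progenitor starts kept a peak in all 6 libraries. The deposited lists also held peaks at the start sites of all 8 mesenchymal stroma markers that have such a window, in all 6 libraries, and on the equal-length lists 1 of these 8 kept one in all 6.

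The Hox windows were unevenly open, and in both ages HoxA and HoxC carried most of the accessible bases. The windows held 198, 177 and 178 peaks in the old libraries and 230, 191 and 228 in the young libraries. Merged over the 6 lists, these peaks made 320 regions, 92 in HoxA, 89 in HoxB, 82 in HoxC and 57 in HoxD. A peak in all 6 libraries was found for 92 of the 320 regions (28.7%), against 30.0% of all 403801 regions. Of those 92 regions, 41 lay within 1 kb of a Hox start and 51 farther away, and 17 overlapped no annotated gene. By cluster, 31 of 92 HoxA regions, 34 of 82 HoxC regions, 15 of 89 HoxB regions and 12 of 57 HoxD regions were in all 6. Another 121 of the 320 regions (37.8%) came from 1 library alone, beside 40.7% of all regions.

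Hox peaks were narrower than those of the whole list in each library, and their median −log10 q was lower in 5 of 6 libraries and equal in old library 2. Their median width was 141, 112 and 126 bp in the old libraries and 113, 125 and 139 bp in the young ones, against 139 to 168 bp and 152 to 169 bp for all peaks of the same old and young libraries. The median −log10 q of Hox peaks was 3.31, 2.49 and 2.64 in old and 2.99, 2.62 and 2.99 in young libraries, against 3.45, 2.49 and 2.96 in old and 3.34, 3.08 and 3.47 in young libraries for all peaks. The strongest Hox peak ranked 14343, 8022 and 11873 in the old lists and 9482, 9580 and 14134 in the young lists. Of the Hox peaks, 31, 33 and 31 were among the 50000 strongest in the old libraries (15.7%, 18.6% and 17.4% of them), against 30, 25 and 30 in the young libraries (13%, 13.1% and 13.2%). The old shares were all above the young ones. Over all peaks the share is 50000 divided by the length of the list, 20.4% to 23.2% in old and 19.7% to 22.4% in young libraries. It is thus fixed by the number of peaks. A Hox share also depends on the number of Hox peaks in the library, 198, 177 and 178 in old and 230, 191 and 228 in young libraries. No test was made of these shares.

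**Figure D1:**
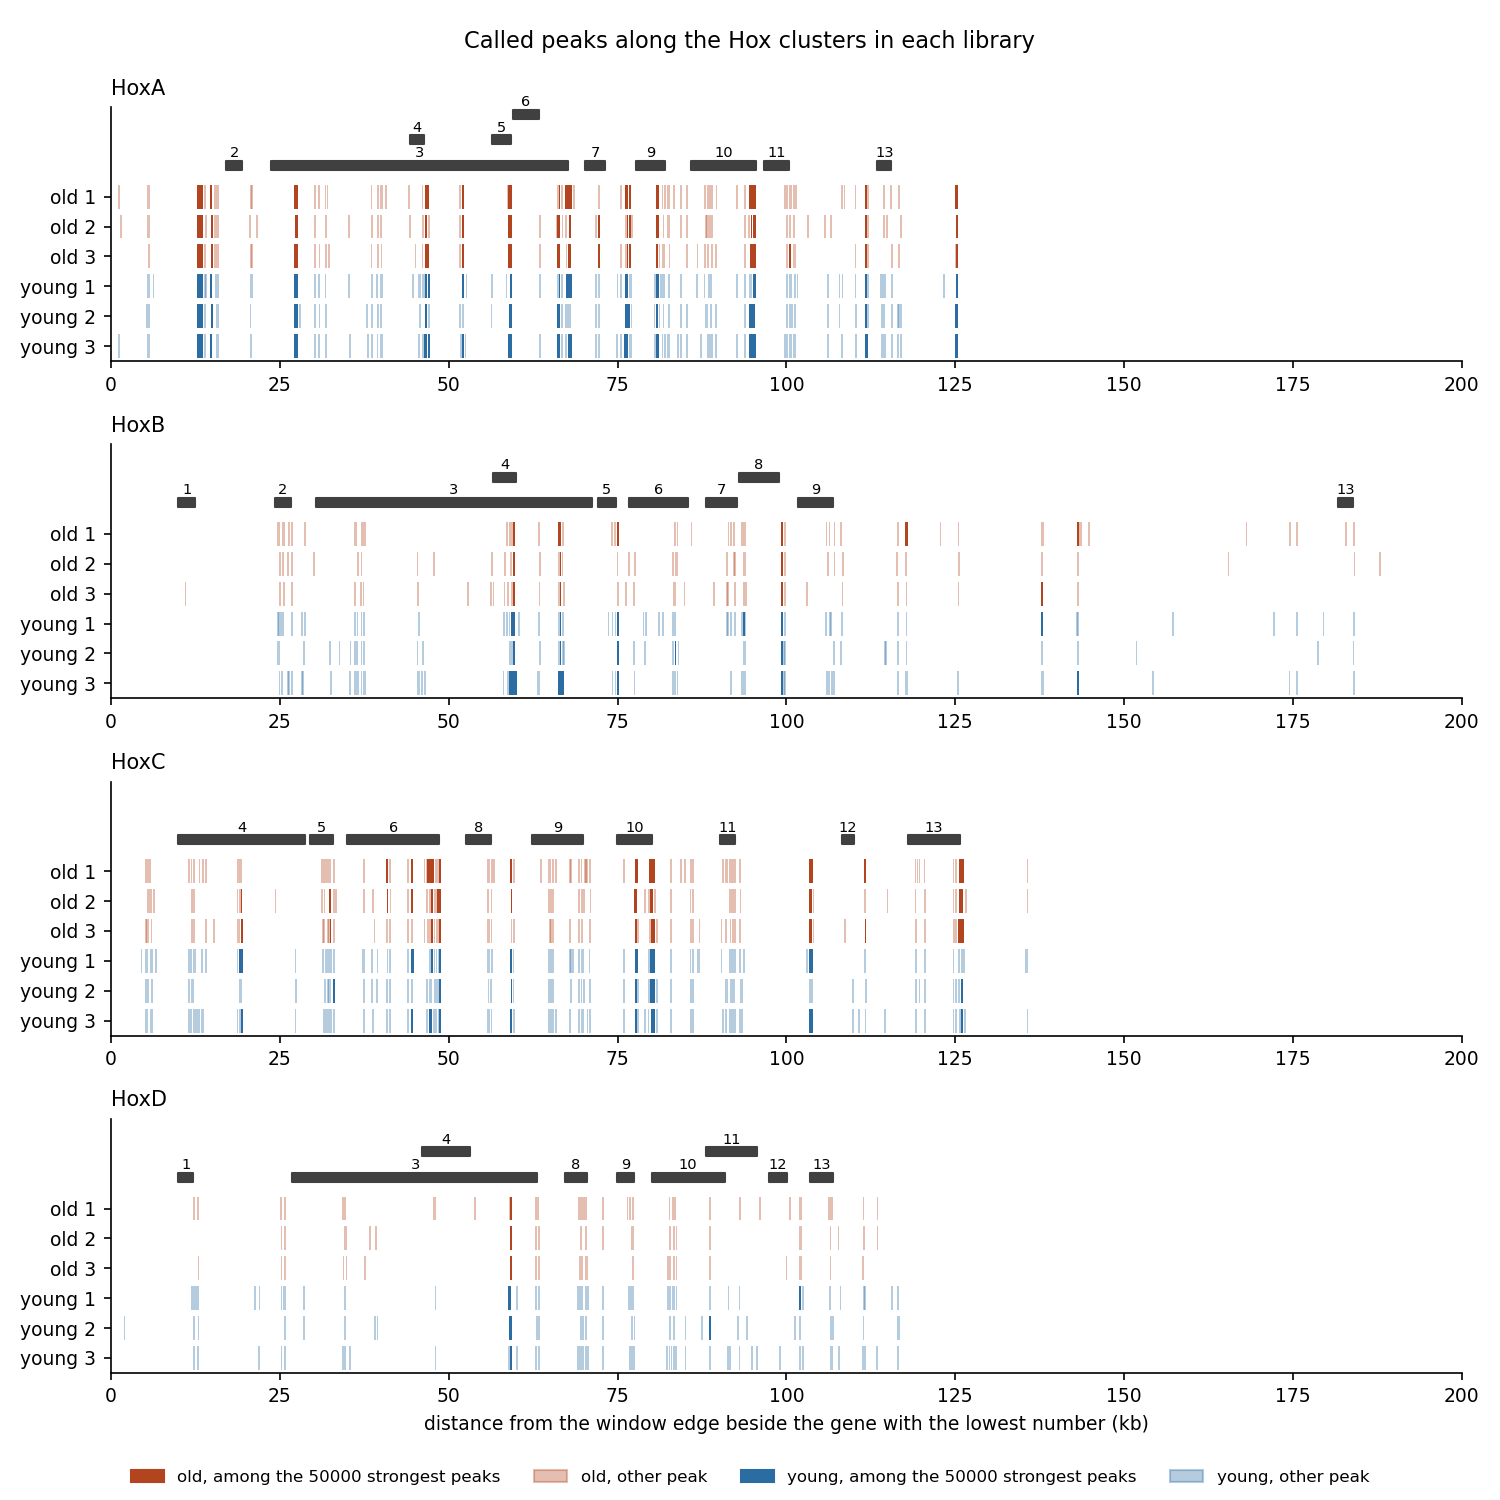
Position of every called peak in the 4 Hox windows, one row per library with old above young; the horizontal axis is the distance in kb from the window edge beside the gene with the lowest number, black bars are gene spans with their paralogue numbers, and full colour marks the 50000 strongest peaks of a library. Peaks under 250 bp are drawn 250 bp wide. The same strong positions recur from library to library in HoxA, and strong peaks are few between Hoxb9 and Hoxb13 and in the whole of HoxD.

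The share of each window inside a peak set the clusters apart in every library. In the old libraries HoxA was covered to 12.5%, 8.91% and 8.94%, HoxC to 11.2%, 8.15% and 7.78%, HoxD to 5.53%, 2.91% and 3.12%, and HoxB to 3.97%, 2.42% and 2.41%. In the young libraries HoxA was covered to 11.6%, 10.1% and 12.4%, HoxC to 10.4%, 8.80% and 10.8%, HoxD to 5.37%, 3.33% and 5.69%, and HoxB to 3.84%, 2.48% and 4.99%. Old library 1 and young libraries 1 and 3, which have the most covered bases genome-wide, stood above the other libraries of their group in all 4 windows. Over the 6 libraries HoxA averaged 10.7% ± 1.66 (SD) and HoxB 3.35% ± 1.08, a ratio of 3.21. HoxC averaged 9.52% ± 1.46 and HoxD 4.33% ± 1.33. Each of the 6 pairs of clusters differed in the same direction in 6 of 6 libraries (exact two-sided sign-flip permutation test within libraries, p = 0.0312, the smallest that 6 libraries allow, and 0.0312 after Benjamini-Hochberg adjustment over the 6 pairs). This comparison of clusters was added after the data were seen.

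HoxA stood first and HoxC second under each other window and list tried, while the order of HoxD and HoxB depended on the choice. The HoxB window includes the long stretch beside Hoxb13. Without Hoxb13, from Hoxb9 to Hoxb1, the window of 117 kb was covered to 4.66% ± 1.57, and HoxD was 0.33 percentage points below HoxB and higher in 1 of 6 libraries (exact permutation p = 0.2188). On the equal-length lists HoxA averaged 4.62% ± 0.704, HoxC 2.50% ± 0.686, HoxB 0.641% ± 0.392 and HoxD 0.355% ± 0.173. There HoxA exceeded HoxC by 2.12 percentage points (SD 0.52) in 6 of 6 libraries (exact permutation p = 0.0312, adjusted 0.0374), and HoxD differed from HoxB by -0.29 points (SD 0.39, exact permutation p = 0.0938). A gene locus, taken as the gene with 10 kb on each side, had a median coverage of 3.58% to 4.74% over all genes in old libraries and 3.94% to 4.89% in young libraries. The 11 HoxA loci had medians of 10.3% to 12.9% in old and 11.1% to 12% in young libraries. The loci of Hoxa10 and Hoxa7 were covered to 15.4% and 15.1%, the 99.3rd and 99.2nd percentiles of all genes, and that of Hoxb1 had a median of 0 (7.39th percentile).

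**Figure D2:**
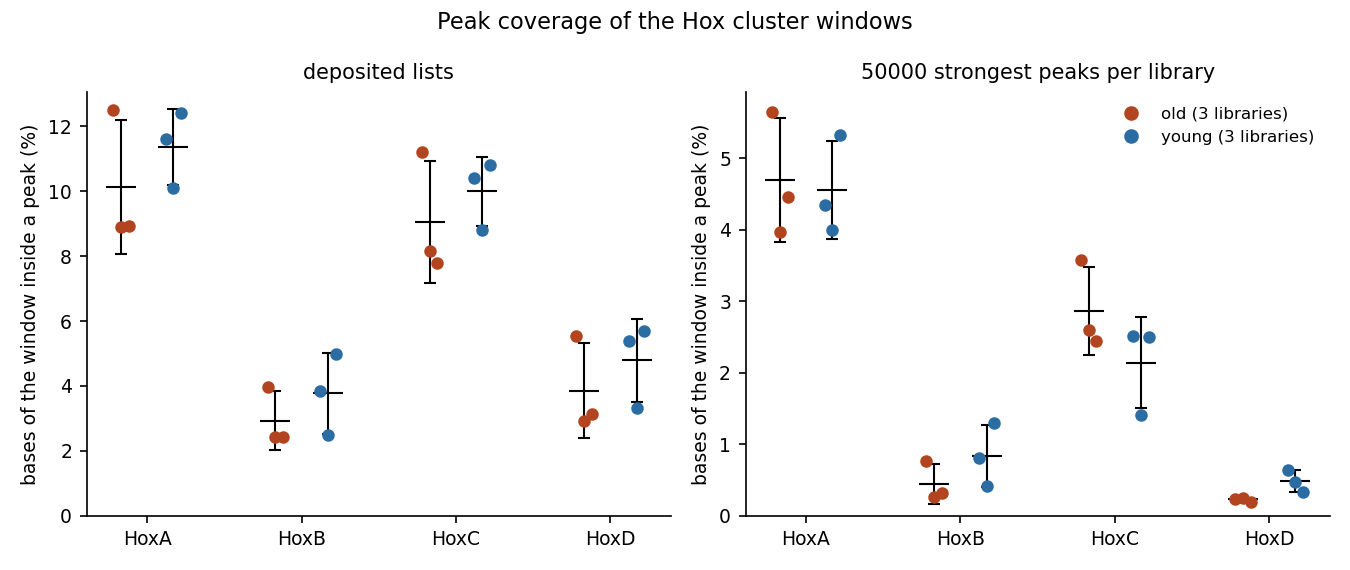
Percent of the bases of each Hox window inside a peak, for the deposited lists (left) and the 50000 strongest peaks per library (right); points are libraries, old left of young, and black bars the mean ± SD of 3. HoxA lies above HoxC in every library, and HoxB and HoxD lie below both.

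By the median −log10 q over the 6 libraries, the first region of HoxA lay between Hoxa7 and Hoxa9, at chr6:52221340-52222416, outside any annotated gene and 681 bp from the span of Hoxa9. Its −log10 q was 22.0, 20.1 and 18.7 in the old libraries and 21.3, 15.9 and 22.0 in the young libraries, and other HoxA regions scored higher in 4 of the 6. In HoxB the first region by this median was chr11:96278704-96279054, 347 bp before the span of Hoxb8, at 17.8, 11.4 and 12 in old and 20.1, 14.1 and 22.1 in young libraries, and another HoxB region scored higher in 3 of the 6. These scores are the authors' own, one for each peak in each library, and were not tested between ages. In HoxC the first region was chr15:102987491-102987707, between Hoxc8 and Hoxc9, at 14.3, 7.89 and 5.04 in old and 16.6, 12 and 15.5 in young libraries, with a higher HoxC region in 4 of the 6. In HoxD the first region, also the highest in every library, was chr2:74715707-74716305, inside Hoxd3 and its antisense gene Hoxd3os1, at 23.6, 11.5 and 12.3 in old and 12.8, 12.3 and 17.4 in young libraries. This was the sole HoxD region of the equal-length lists with a peak in all 6 libraries. Such regions numbered 11 in HoxA (of 16), 3 in HoxB (of 9), 3 in HoxC (of 14) and 1 in HoxD (of 3), together 18 of 42 (42.9%) beside 50.9% of all regions.

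At the start sites themselves, most Hox genes had a peak on the deposited lists and few on the equal-length lists. A start-site window reached 1 kb to each side of the RefSeq start. For 17 of the 39 Hox genes no start was listed, and the 5′ end of the gene span was used instead. All genes outside the Hox set have a listed start, so the Hox and all-gene values rest in part on unlike starts. Of the 39 Hox windows, 25 (64.1%) had a peak in all 6 deposited lists, against 64.0% of 17291 genes with such a window, and 4 had none in any library, against 26.5%. The median over Hox genes was 316 bp of the window's covered bases, against 614 bp over all genes. On the equal-length lists 7 of 39 (17.9%) kept a peak in all 6 libraries, against 48.3% of all genes, and 24 had none, against 44.8%. The 7 included Hoxa4, Hoxa5, Hoxa10, Hoxb4, Hoxc6 and Hoxc10, and the 24 included all 9 HoxD genes. No test was made of these shares, which describe the members.

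In HoxA the most covered start was that of Hoxa3, a gene of the pharyngeal arches, with 1186, 782 and 704 bp in old libraries and 1075, 1110 and 1054 bp in young libraries. This start is the upstream end of a span of 44009 bp that also holds Hoxa4, Hoxa5 and Hoxa6. The Hoxa3 values therefore concern that start alone. Hoxa10, one of the limb and progenitor genes, had 1012, 510 and 827 bp in old and 839, 939 and 1001 bp in young libraries. Both were covered in each library, and old and young values overlapped. Hoxa2, which patterns the second arch, had 0 bp in all 6 libraries, and Hoxa6 had 0, 137 and 31 bp in old and 47, 0 and 30 bp in young libraries.

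In HoxB only Hoxb4, Hoxb5 and Hoxb7 had a start-site peak in all 6 libraries. Hoxb4, known for expanding blood stem cells when overexpressed, had 407, 472 and 295 bp in old and 802, 376 and 1090 bp in young libraries. Hoxb5 had 435, 186 and 167 bp in old and 404, 177 and 408 bp in young libraries. Young libraries 1 and 3 stood above the other Hoxb4 values, and the groups overlapped. Hoxb1, Hoxb3 and Hoxb8 had 0 bp in every library, and Hoxb6 had 118, 0 and 29 bp in old and 0 bp in all young libraries. For Hoxb3 the start is the upstream end of a span of 40830 bp, and for Hoxb8 it is the table's start inside the gene, downstream of the strong region named above, so a 0 here concerns that start alone.

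In HoxC 8 of 9 start sites had a peak in all 6 deposited lists, the largest share of the 4 clusters. On the equal-length lists 2 of 9 did, beside 4 of 11 in HoxA. Hoxc11, a hindlimb gene, had 1066, 1040 and 756 bp in old and 922, 828 and 1158 bp in young libraries. On the equal-length lists the Hoxc11 start had 0 bp in all 6 libraries. Hoxc13, the hair and nail gene at the end of the cluster, had 1112, 806 and 944 bp in old and 985, 772 and 932 bp in young libraries. The lowest were Hoxc8 with 572, 534 and 501 bp in old and 325, 464 and 507 bp in young libraries, and Hoxc12 with 0 bp in the old libraries and 0, 29 and 135 bp in the young ones. In HoxD the highest were Hoxd8, with 992, 470 and 517 bp in old and 516, 583 and 609 bp in young libraries, and Hoxd10, with 786, 485 and 388 bp in old and 799, 263 and 530 bp in young libraries. The lowest in HoxD were Hoxd4, with 92, 0 and 0 bp in old and 0 bp in all young libraries, Hoxd11, with 123, 0 and 0 bp in old and 0, 0 and 110 bp in young libraries, and Hoxd12, with 29, 0 and 135 bp in old and 0 bp in all young libraries. Each of these 3 had a peak in 1 or 2 libraries.

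**Figure D3:**
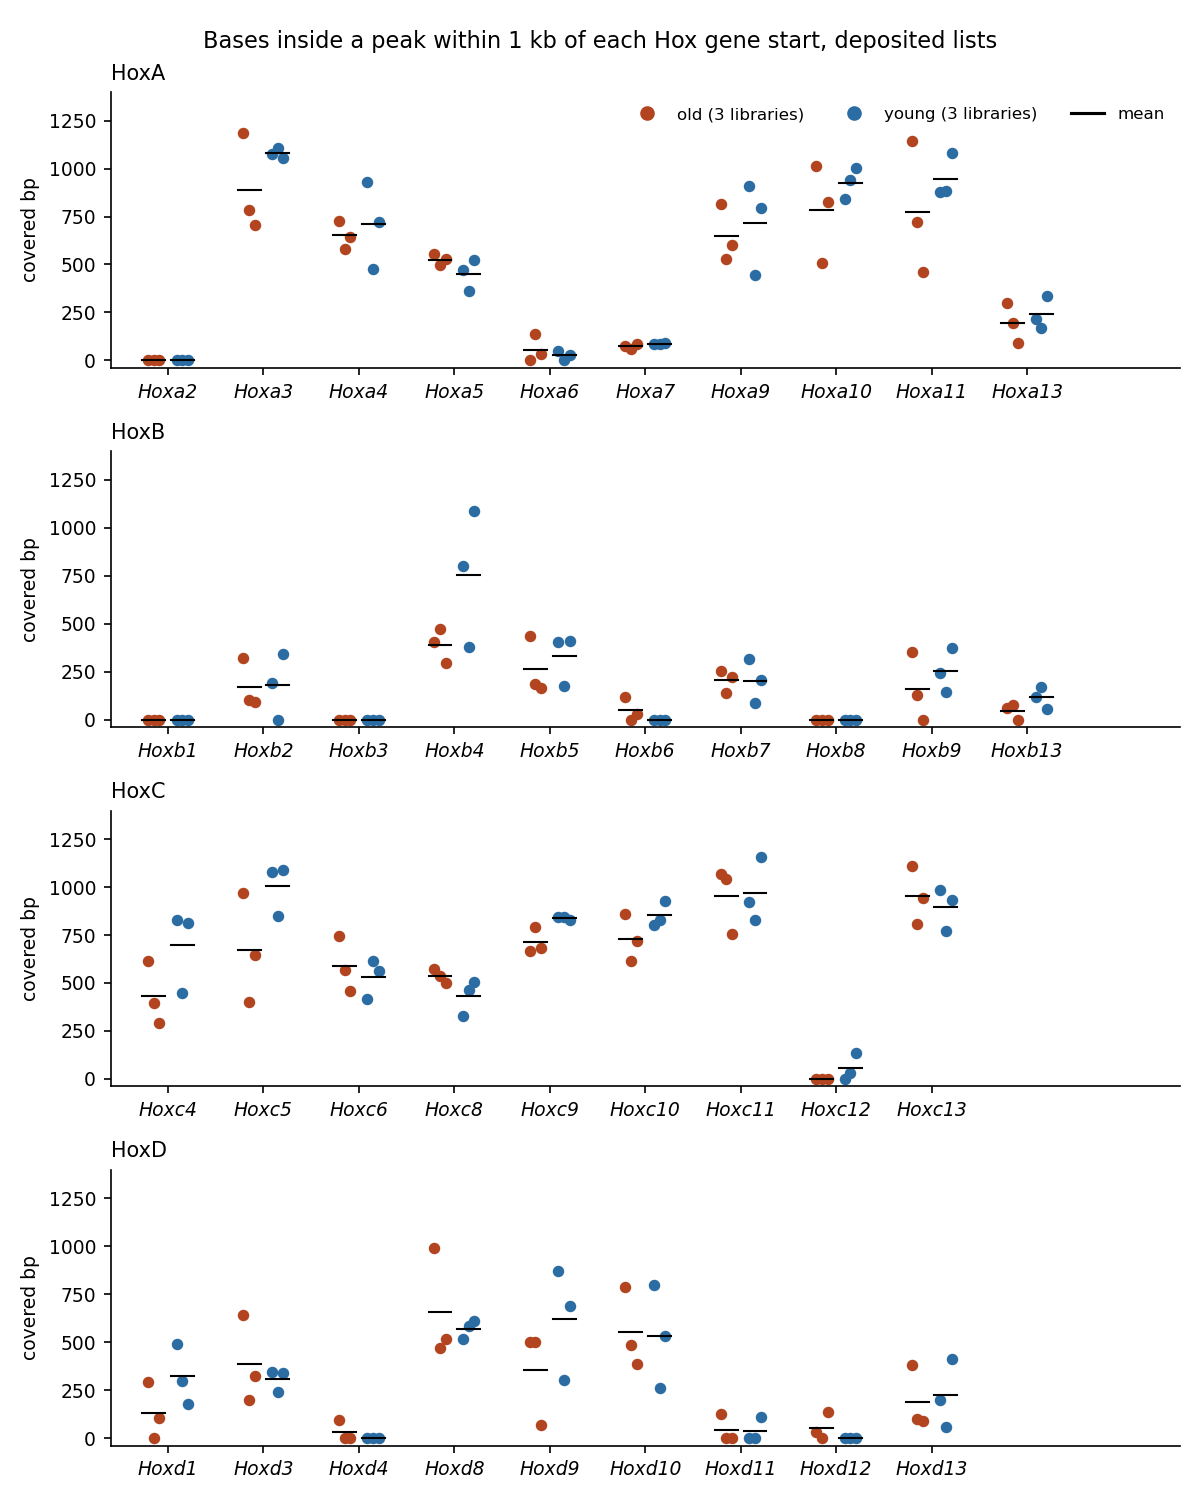
Covered bp in the start-site window of the Hox genes on the deposited lists; points are libraries, old left of young, and black lines the means of 3. Old and young points overlap for most genes, and Hoxa2, Hoxb1, Hoxb3 and Hoxb8 stay at 0 in all 6 libraries.

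Across clusters, start-site coverage on the deposited lists followed the paralogue number only in part. The group 10 genes (Hoxa10, Hoxc10 and Hoxd10) had the highest mean per gene, 887, 536 and 645 bp in old and 814, 676 and 819.7 bp in young libraries. Group 11 followed with 777, 586 and 406 bp in old and 599.7, 571 and 783 bp in young libraries, which overlap those of group 10. This place of group 11 is not kept on the equal-length lists. There the starts of Hoxc11 and Hoxd11 had 0 bp in all 6 libraries, and Hoxa11 had 129 bp in old library 3 alone. Groups 10 and 11 have no HoxB gene, while groups 3 and 5 include Hoxb3 and Hoxb5, with medians of 0 and 295 bp. The order of the group means therefore depends in part on which clusters hold a gene. Over the 6 libraries the median of these means was 593 bp for group 11, 556 bp for group 5 and 536 bp for group 9. The lowest were group 12, at 14.5, 0 and 67.5 bp in old and 0, 14.5 and 67.5 bp in young libraries, and group 2, at 160.5, 50 and 46.0 bp in old and 95.5, 0 and 172 bp in young libraries. Within a group the clusters differed widely. In group 13 the start of Hoxc13 had a median of 938 bp over the 6 libraries, those of Hoxa13 and Hoxd13 had 205 and 150 bp, and that of Hoxb13 had 67 bp.

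**Figure D4:**
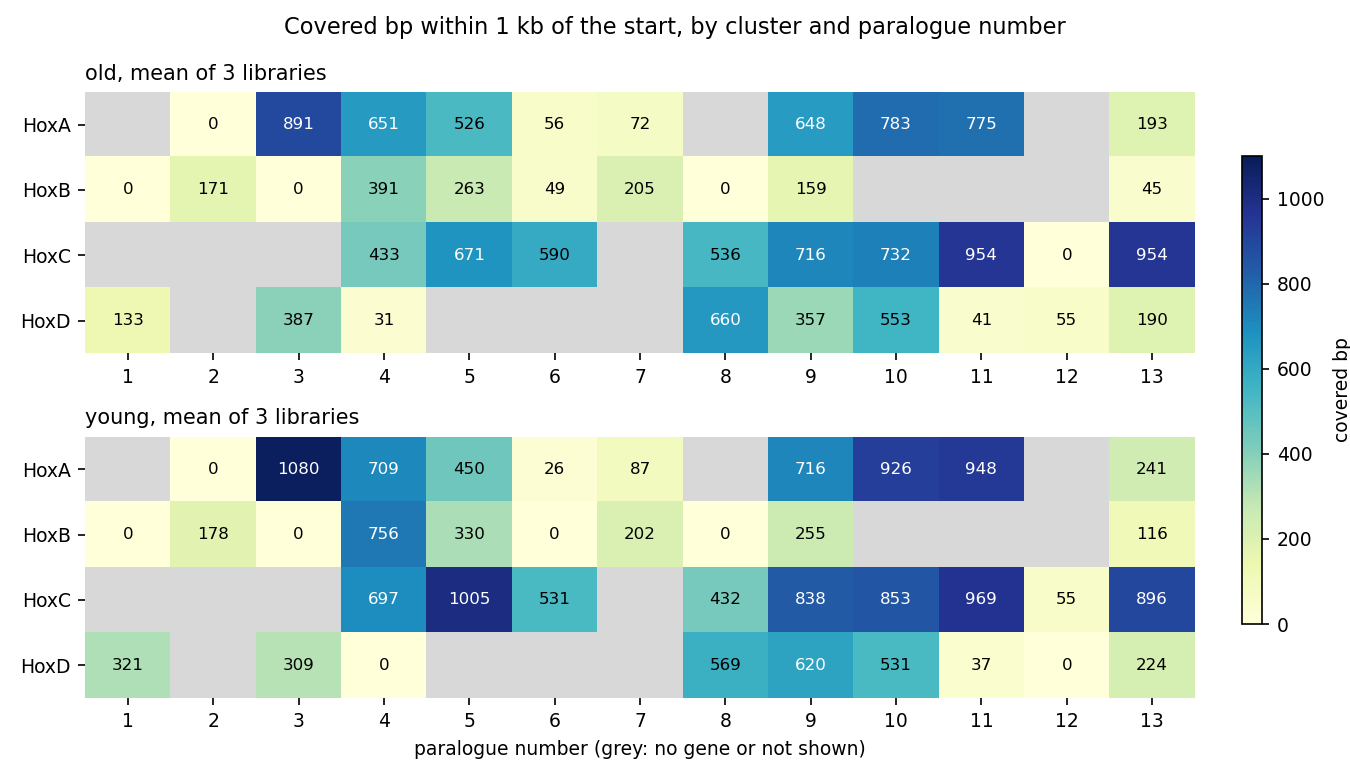
Mean covered bp in the start-site window by cluster (rows) and paralogue number (columns), in old libraries (top) and young libraries (bottom) on the deposited lists; grey cells have no gene or are not shown. The low cells of groups 2, 7 and 12 and the high cells of HoxC at 9, 10, 11 and 13 recur in both ages.

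Promoter sequence was available for 22 of the 39 Hox genes as RefSeq windows of GRCm38.p6 from 250 bases before to 50 bases after the start. The windows held a median of 13.5 CG dinucleotides and 56.8% G and C, against 14 and 56.3% over all 17274 promoters. Hoxa13 had 45 CG, the 97.8th percentile, and Hoxd13 had 37 (93.4th percentile). The windows of the genes with the highest and the lowest start-site coverage in each cluster are shown, as far as the table holds them, because they bracket the range of coverage. In HoxC only Hoxc4 has an entry, and of the HoxB and HoxD genes tied at 0 the one with the lowest number is given. Capitals mark CG dinucleotides.
Hoxa3, chr6:52213018-52213317, minus strand: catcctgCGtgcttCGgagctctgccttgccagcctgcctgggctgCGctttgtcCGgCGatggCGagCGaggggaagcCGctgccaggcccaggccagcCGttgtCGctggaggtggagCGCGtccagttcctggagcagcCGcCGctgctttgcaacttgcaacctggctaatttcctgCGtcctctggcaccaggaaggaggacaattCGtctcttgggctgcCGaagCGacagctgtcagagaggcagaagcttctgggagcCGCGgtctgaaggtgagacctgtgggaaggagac
Hoxa2, chr6:52164782-52165081, minus strand: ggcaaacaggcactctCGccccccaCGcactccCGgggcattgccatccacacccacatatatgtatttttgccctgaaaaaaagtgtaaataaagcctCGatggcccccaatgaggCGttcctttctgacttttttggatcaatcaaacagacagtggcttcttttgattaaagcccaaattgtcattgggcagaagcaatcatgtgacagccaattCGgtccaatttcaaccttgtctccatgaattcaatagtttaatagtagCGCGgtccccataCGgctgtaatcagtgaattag
Hoxb4, chr11:96318017-96318316, plus strand: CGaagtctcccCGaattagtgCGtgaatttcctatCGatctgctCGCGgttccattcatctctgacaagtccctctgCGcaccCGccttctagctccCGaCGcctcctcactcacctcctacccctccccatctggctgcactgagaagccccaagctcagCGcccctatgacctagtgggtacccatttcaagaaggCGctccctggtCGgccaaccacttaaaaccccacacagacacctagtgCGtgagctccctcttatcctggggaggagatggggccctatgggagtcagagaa
Hoxb1, chr11:96365508-96365807, plus strand: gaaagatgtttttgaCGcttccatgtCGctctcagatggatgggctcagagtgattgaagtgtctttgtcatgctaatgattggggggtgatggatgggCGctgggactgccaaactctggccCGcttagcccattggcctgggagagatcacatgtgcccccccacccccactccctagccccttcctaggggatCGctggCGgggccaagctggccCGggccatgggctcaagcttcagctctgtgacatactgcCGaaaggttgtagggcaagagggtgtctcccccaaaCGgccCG
Hoxc4, chr15:103034145-103034444, plus strand: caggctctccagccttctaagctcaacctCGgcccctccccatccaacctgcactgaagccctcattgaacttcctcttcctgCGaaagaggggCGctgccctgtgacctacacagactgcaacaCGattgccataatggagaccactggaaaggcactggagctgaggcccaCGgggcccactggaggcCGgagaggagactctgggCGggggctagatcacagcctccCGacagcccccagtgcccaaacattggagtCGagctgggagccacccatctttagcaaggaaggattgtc
Hoxd8, chr2:74704365-74704664, plus strand: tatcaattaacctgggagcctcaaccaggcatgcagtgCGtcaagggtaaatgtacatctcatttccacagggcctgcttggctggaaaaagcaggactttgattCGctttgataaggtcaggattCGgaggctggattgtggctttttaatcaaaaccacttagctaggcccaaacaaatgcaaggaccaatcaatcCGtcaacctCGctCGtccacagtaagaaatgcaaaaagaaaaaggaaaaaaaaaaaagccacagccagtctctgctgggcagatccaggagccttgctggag
Hoxd4, chr2:74721728-74722027, plus strand: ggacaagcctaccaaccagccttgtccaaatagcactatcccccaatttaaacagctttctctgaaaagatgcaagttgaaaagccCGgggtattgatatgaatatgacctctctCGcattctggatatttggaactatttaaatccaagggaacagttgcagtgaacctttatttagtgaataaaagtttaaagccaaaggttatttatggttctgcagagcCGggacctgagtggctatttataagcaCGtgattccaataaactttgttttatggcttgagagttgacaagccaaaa

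The Hoxa3 window held 20 CG, and peaks covered 300, 106 and 232 of its bases in old and 300, 300 and 222 in young libraries. The Hoxa2 window held 9 CG and no covered base in any library. The Hoxb4 and Hoxb1 windows held 14 and 10 CG. Hoxb1 had no covered base, and the Hoxb4 window had 139 covered bases in young library 3 and none elsewhere. The Hoxd8 and Hoxd4 windows, beside the most and the least covered HoxD starts, held 6 and 4 CG. The CG-rich Hoxa13 window was covered over 0 to 195 bases in old and 107 to 174 in young libraries, and that of Hoxd13 over 0 to 23 bases in old and over none in young libraries. Of the motifs searched on both strands, AGGTCA (a core element of retinoid receptor sites) was in 7 of 22 Hox promoters (31.8%) and in 14.4% of all promoters. The 7 were Hoxa5, Hoxb4, Hoxc4, Hoxd3, Hoxd4, Hoxd8 and Hoxd10. TGATNNAT (Hox with Pbx) was in 3 of 22 (13.6% against 7.72%), in the windows of Hoxa2, Hoxb1 and Hoxb8, none of which had a covered base in any library. The windows of Hoxa7, Hoxd4 and Hoxd12, without this motif, had no covered base either, and no link of motif and coverage was tested. A match is a description of the letters in this window. The other motifs were in 0 to 4 of the 22 windows.

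The clusters also hold microRNA genes, whose products repress Hox messages among others. Their mature 5′ forms are shown because 4 of the 5 share their seed with a form from another cluster, in the miR-196 and the miR-10 family, while miR-615-5p has a seed of its own. Capitals mark the seed, bases 2 to 8, and sequences are from RefSeq on GRCm38.p6.
mmu-miR-196b-5p, Mir196b in HoxA: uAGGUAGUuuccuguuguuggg
mmu-miR-196a-5p, Mir196a-1 in HoxB and Mir196a-2 in HoxC: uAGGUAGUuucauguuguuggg
mmu-miR-10a-5p, Mir10a in HoxB: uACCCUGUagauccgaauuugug
mmu-miR-10b-5p, Mir10b in HoxD: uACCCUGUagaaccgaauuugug
mmu-miR-615-5p, Mir615 in HoxC: gGGGGUCCccggugcucggauc

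Counted from the 5′ end, miR-196b-5p and miR-196a-5p differ by C12A, and miR-10a-5p and miR-10b-5p by U12A, both outside the shared seed. Accessibility within 1 kb of the hairpins differed sharply among these loci. Mir196a-1 and Mir196a-2 had 0 covered bases in all 6 libraries. Mir10b had 4 bp in young library 3 and none elsewhere, and Mir10a had 99 and 97 bp in young libraries 1 and 3 and none elsewhere. Mir196b had 143, 84 and 56 bp in old and 111, 144 and 176 bp in young libraries. Mir615, which lies inside Hoxc5, had 1077, 593 and 657 bp in old and 1281, 893 and 1049 bp in young libraries, and its window shares peaks with the Hoxc5 start. The old and young values overlapped at Mir196b and Mir615, and no test was made.

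With age, no Hox locus and no Hox start site passed the test. Covered bases per locus were scaled to the library's sum over loci and tested with limma as log2(bp + 200). Differences are old minus young, and p-values were adjusted by Benjamini-Hochberg over every locus in the fit, with a threshold of 0.05. On the deposited lists 36 of the 39 Hox loci passed the filter of a mean of 500 bp, and 0 were called, while 0.390% of 16943 loci were called higher and 0.578% lower in old (0.968% together). At an unadjusted p under 0.05 there were 4 of 36 Hox loci, against 12.8% of all loci. Of the 36, 14 had higher and 22 lower values in old, with a median log2 difference of -0.02, against 0.01 over all loci. Scaled old values lay all above scaled young ones at 4 loci and all below at 2, against 8.63% and 8.36% of all loci. Neighbouring Hox loci share peaks, so these counts are not of independent loci. Hoxb1, Hoxb13 and Hoxd1 were below the filter, at 0.19, -0.62 and -0.83.

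The Hox loci with the smallest p lay in HoxC and HoxA. The locus of Hoxc5 had 1799, 1161 and 1358 bp in old and 2412, 1869 and 2209 bp in young libraries, each old value below each young one (log2 difference -0.39, SE 0.12, limma adjusted p = 0.123). The adjacent Hoxc4 had 3832, 2487 and 2828 bp in old and 4758, 2982 and 4127 bp in young libraries (-0.20, SE 0.11, limma adjusted p = 0.467). The locus of Hoxa13 had 1392, 721 and 630 bp in old and 1277, 1481 and 1789 bp in young libraries (-0.54, SE 0.17, limma adjusted p = 0.155). Its old library 1 stood within the young range, and without that library the difference was -0.72 and passed the threshold. Without young library 2 the locus called was that of Hoxb4, lower in old. Hoxa2 had 2881, 2406 and 2686 bp in old and 2412, 2408 and 2545 bp in young libraries. After scaling, each of its old values lay above each young one (log2 difference 0.26, SE 0.10, limma adjusted p = 0.273). Hoxc13 had 2115, 1598 and 1473 bp in old and 1737, 1499 and 1748 bp in young libraries (0.19, SE 0.11, limma adjusted p = 0.529), also apart once scaled.

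On the equal-length lists 17 Hox loci passed the filter, 10 in HoxA, 5 in HoxC, 2 in HoxB and 0 in HoxD, and again 0 were called, while 0.841% of 14380 loci were called higher and 0.438% lower (1.28% together). One locus, Hoxc13, was under an unadjusted p of 0.05, against 14.8% of all loci. Hoxc13 had 1053, 605 and 1035 bp in old and 0, 348 and 365 bp in young libraries, each old value above each young one (log2 difference 1.51, SE 0.42, limma adjusted p = 0.141). The difference comes from a pair of regions, both with a peak in all 6 deposited lists. The region over the Hoxc13 start gave 643, 605 and 796 bp in old and 0, 348 and 365 bp in young libraries, and one 1399 bp from the Hoxc12 start gave 410, 0 and 239 bp in old and none in young libraries. Hoxc6, a gene of the thoracic region, had 1682, 1238 and 743 bp in old and 872, 595 and 1067 bp in young libraries (0.52, SE 0.23, limma adjusted p = 0.348). Hoxa6 had 1946, 1443 and 1634 bp in old and 1670, 638 and 1543 bp in young libraries (0.53, SE 0.25, limma adjusted p = 0.390), and without young library 2, the lowest, the Hoxa6 difference was 0.20. Hoxb3 had 712, 350 and 323 bp in old and 944, 510 and 2181 bp in young libraries (-0.87, SE 0.38, limma adjusted p = 0.341), and Hoxb4 had 523, 350 and 323 bp in old and 770, 333 and 1997 bp in young libraries (-0.72, SE 0.43, limma adjusted p = 0.492). The high value of young library 3 at both comes from a region inside Hoxb3 (886 bp there) and one over the Hoxb4 start (1111 bp there). Hoxb3 and Hoxb4 averaged under the filter's value in old and Hoxc12 and Hoxc13 in young libraries, so they passed through the other age alone, and no direction is read from the loci that passed. Below the filter, Hoxa13, Hoxc4 and Hoxc11 differed by -0.27, -0.19 and -0.11, Hoxc5 and Hoxc9 by 0.57 and 0.08, and the HoxB and HoxD loci by -1.16 (Hoxb6) to 0. After scaling, old values lay all above young ones at 2 Hox loci, Hoxa6 and Hoxc13, and all below at 0, against 9.88% and 10.5% of all loci. The unscaled Hoxa6 values given above overlap.

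**Figure D5:**
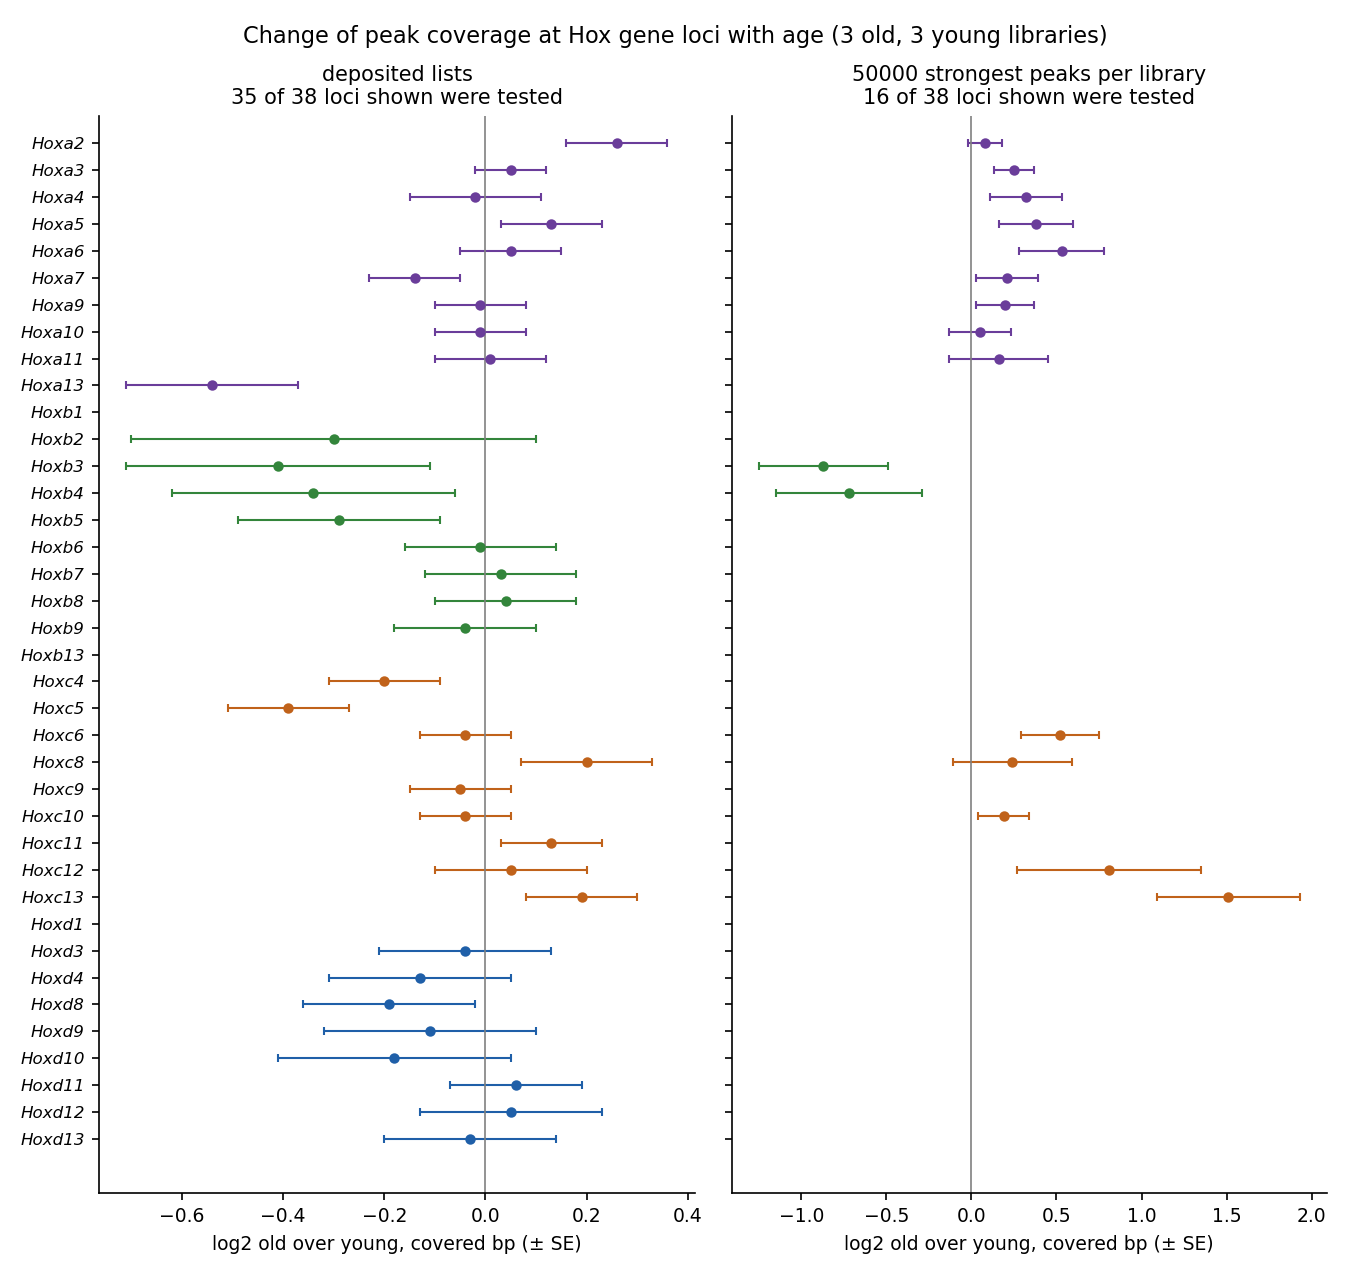
Log2 difference of covered bases (old over young, scaled) at each Hox locus with its standard error, for the deposited lists (left) and the 50000 strongest peaks (right); colours mark the 4 clusters and loci without a point were below the filter. No difference passed the limma threshold; Hoxc13 at 1.51 on the right and Hoxa13 at -0.54 on the left lie farthest from 0.

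The start-site windows gave the same count of calls on a smaller window. For the 27 Hox starts that reached an average of 100 bp, 0 were called, and 0 of 11367 genes were called in either direction, so the share called was 0. At an unadjusted p under 0.05 there were 2 Hox starts, Hoxc5 among them, against 891 genes (7.84%). Hoxc5 had 969, 399 and 644 bp in old and 1079, 848 and 1088 bp in young libraries (log2 difference -0.48, SE 0.19, limma adjusted p = 0.589), and on the equal-length lists its difference was 0.85. Hoxc8 and Hoxc13 differed by 0.44 (SE 0.21) and 0.23 (SE 0.10), and Hoxb4 and Hoxc4 by -0.64 (SE 0.30) and -0.50 (SE 0.25), with limma adjusted p from 0.636 to 0.653. After scaling, old values lay all above young ones at 4 Hox starts (Hoxa5, Hoxc8 and Hoxc13 among them) and all below at 0, against 6.61% and 6.15% of genes.

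Whole clusters were compared by exact permutation, a test that with 3 libraries against 3 cannot go below p = 0.10, so what it can show is whether the libraries overlapped. Covered bases of each window were divided by the library's covered bases. On the deposited lists HoxA had 247, 232 and 229 bp per covered Mb in old and 234, 242 and 236 in young libraries (log2 difference -0.01), and HoxC had 238, 229.7 and 216 in old and 226, 228 and 222 in young libraries (0.01, exact permutation p = 0.80 for each). HoxB differed by -0.19 and HoxD by -0.16, with overlapping libraries. The number of peaks per 10000 in HoxD was 1.1, 0.97 and 1.0 in old and 1.6, 1.4 and 1.6 in young libraries (28, 22 and 22 peaks in old and 38, 30 and 41 in young), each old value below each young one (log2 difference -0.53, exact permutation p = 0.10, adjusted 0.40 over 16 tests). The number in HoxA was 2.40, 2.59 and 2.50 in old and 2.91, 2.65 and 2.63 in young libraries, also apart (-0.13, exact permutation p = 0.10, adjusted 0.40).

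With lists cut to equal length, HoxA and HoxC had more and HoxB and HoxD fewer covered bases in old libraries, as means. HoxC had 173, 157 and 142 bp per covered Mb in old and 125, 78.4 and 121 in young libraries, each old value above each young one (log2 difference 0.54, exact permutation p = 0.10, adjusted 0.40). HoxD had 9.99, 13 and 9.79 in old and 27.7, 22.9 and 13.7 in young libraries, each old value below each young one (-0.97, exact permutation p = 0.10, adjusted 0.40). HoxD rests on 1 peak in each old library and on 1 or 2 in each young one. With lists of 25000 peaks the HoxC difference was 1.41 and that of HoxD 0.05, and with lists of 100000 peaks HoxD was at 0.24. HoxA differed by 0.15 and by -0.50 with 25000 peaks, and HoxB by -0.82 and by 0.01 with 100000 peaks.

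Beside the HoxC values, markers of other cell types also differed on the equal-length lists. Summed over the list's loci and scaled, the 12 mesenchymal stroma markers had 15519 to 17851 bp in old and 11993 to 13114 bp in young libraries, with none at 0. The 8 osteoblast and chondrocyte markers had 13809 to 16134 bp in old and 11650.3 to 13239 bp in young libraries, with Ibsp at 0 in all 6. The 12 macrophage markers had 22047 to 22748 bp in old and 25958 to 27068 bp in young libraries, with none at 0, and the 7 B cell markers 9238 to 10156 bp in old and 7725 to 9152 bp in young libraries. The sums were not tested. Of the B cell sum, Ebf1 alone held 5621, 6659 and 6512 bp in old and 4628, 4619 and 3679 bp in young libraries. The 5 B cell loci that passed the filter had a median log2 difference of -0.26, so the higher sum in old rests on Ebf1. On these lists the sums of endothelial, T and NK cell, neutrophil, erythroid and progenitor markers overlapped between ages. Of the markers that passed the filter, 6 of 9 stroma, 5 of 5 osteoblast, 2 of 11 macrophage and 2 of 5 B cell loci were higher in old, beside 7138 of all 14380 loci. Of these markers 1 was called, beside 1.28% of all loci. It was the macrophage receptor gene Mertk (3095, 2947 and 3079 bp in old and 4329, 4191 and 4935 bp in young libraries, log2 difference -0.53, SE 0.09, limma adjusted p = 0.0347). The part of these markers in the HoxC and HoxD differences was not tested. On the deposited lists the stroma, osteoblast, macrophage and B cell sums overlapped between ages, while those of endothelial markers (20436 to 21049 bp in old, 21827 to 23524 bp in young libraries) and of T and NK cell markers (11797 to 12117 bp in old, 12344 to 13694 bp in young libraries) did not. Higher in old on the deposited lists were 4 of 12 stroma, 3 of 8 osteoblast, 7 of 12 macrophage and 4 of 7 B cell loci, beside 8835 of 16943 loci. The 1 marker called there, where 0.968% of all loci were called, was the osteoblast gene Bglap. It had 1214, 1224 and 1147 scaled bp in old and 1761, 1753 and 1950.5 in young libraries (-0.53, SE 0.12, limma adjusted p = 0.0364). In bulk libraries, fewer cells of a type and less open chromatin per cell cannot be told apart.

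Regions that separated the ages fully were few and weak. On the deposited lists 0 of the 320 Hox regions had a peak in all 3 old and no young library, against 0.513% of all regions, and 6 (1.88%) had a peak in all 3 young and no old library, against 1.42%. Of the 6, 4 were in HoxA, 1 in HoxC and 1 in HoxD, and all are given. They lay inside Hoxa4 (chr6:52190888-52191248, in a stretch shared with Hoxa3), inside Hoxa9 (chr6:52225723-52225917), between Hoxa11 and Hoxa13 (chr6:52251397-52251589), inside Hoxa13 (chr6:52259436-52259525), inside Hoxc4 (chr15:103019493-103019637) and inside Evx2, the homeobox gene beside Hoxd13 (chr2:74658468-74658793). Their −log10 q in the young libraries was 1.70, 1.65 and 1.93 at the Hoxa4 region, 1.94, 3.23 and 1.61 at the Hoxa9 region and 1.84, 1.64 and 5.26 at the one between Hoxa11 and Hoxa13. It was 2.2, 2.67 and 1.92 at the Hoxa13 region, 1.32, 1.77 and 2.49 at the Hoxc4 region and 1.70, 1.84 and 1.56 at the Evx2 region, so 1 of these 18 values was above 5. On the equal-length lists 0 of 42 Hox regions were in all libraries of one age and none of the other, against 3.29% (old) and 2.59% (young) of all regions.

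Among genes that work with or on the clusters, the TALE cofactors were the group with calls on the equal-length lists. Of its 10 loci, 3 rose with age, beside 0.841% of all loci, and 6 of 10 had higher values in old (median log2 difference 0.23, against -0.00 over all loci). Pbx4 had 1545, 1518 and 1464 scaled bp in old and 844, 901 and 801 in young libraries (log2 difference 0.71, SE 0.11, limma adjusted p = 0.0278). Pknox2 had 2723, 3399 and 3105 in old and 1367, 2036 and 1655 in young libraries (0.81, SE 0.15, limma adjusted p = 0.0469). The 3 calls depend on the choice of list and on the libraries, since 0 were called without any 1 of the old libraries or without young library 1, 1 without young library 2 and 2 without young library 3, and 0 with lists of 25000 or 100000 peaks. Leaving out 1 library left the differences at 0.67 to 0.74 for Pbx4 and 0.68 to 0.94 for Pknox2, while lists of 25000 and 100000 peaks gave 0.10 and 0.00 for Pbx4 and 0.13 and 0.18 for Pknox2. On the deposited lists 0 of the 10 were called, with Pknox2 at 0.25 (SE 0.07, limma adjusted p = 0.0854) and Pknox1 at -0.28 (SE 0.09, limma adjusted p = 0.171).

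The other lists held few or no calls. The 23 Polycomb genes had 0 called on either kind of list, with Pcgf1 at -0.29 (SE 0.10, limma adjusted p = 0.171) on the deposited and Jarid2 at -0.31 (SE 0.07, limma adjusted p = 0.10) on the equal-length ones. The 14 trithorax genes also had 0 called, with Dot1l, which methylates histone H3 in transcribed genes, at 0.19 (SE 0.08, limma adjusted p = 0.30) on the deposited lists. Of the genes upstream of Hox, 0 were called, with the retinoic acid receptor gene Rarb at 0.42 (SE 0.09, limma adjusted p = 0.0783) on the equal-length lists and Cyp26a1, whose enzyme degrades retinoic acid, at -0.42 (SE 0.13, limma adjusted p = 0.155) on the deposited lists. The 15 flanking genes with a locus had 0 called, with Evx2 at 826, 410.4 and 527 scaled bp in old and 1298, 579 and 1258 in young libraries (-0.63, SE 0.26, limma adjusted p = 0.318). Among the 8 insulator and cohesin genes 1 was called on the deposited lists, where 0.968% of all loci were, the cohesin subunit gene Rad21, with 2401, 2437 and 2183 scaled bp in old and 1472, 1652 and 1640.4 in young libraries (0.51, SE 0.11, limma adjusted p = 0.0290). This call was lost when any 1 library was left out (limma adjusted p 0.0503 to 0.141), with differences of 0.46 to 0.55. Over 10 other processing choices the Rad21 difference ranged from 0.0 to 0.6. On the equal-length lists 0 of the 8 insulator and cohesin loci were called, and 0 had an unadjusted limma p under 0.05, against 1 of 8 on the deposited lists. The other 22 clustered homeobox genes had 0 called, with Gbx2 at -0.61 (SE 0.15, limma adjusted p = 0.0606) on the deposited lists. At an unadjusted limma p under 0.05 on the deposited lists, where 12.8% of all loci were, there were 3 of 23 Polycomb, 1 of 14 trithorax, 2 of 11 upstream, 1 of 15 flanking and 3 of 20 other homeobox loci. On the equal-length lists, where 14.8% of all loci were, there were 3 of 23 Polycomb, 1 of 14 trithorax, 3 of 8 upstream, 1 of 12 flanking and 1 of 4 other homeobox loci.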

How the data were processed

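The data are 6 deposited MACS2 broad peak lists, 1 per library. Per the submitters' processing notes, the tools were MACS2 2.1.0.20140616, Bowtie2 2.2.6, Picard, SAMtools, cutadapt 1.14 and Trim Galore 0.4.4, and the build was mm10. Duplicate removal and read-end shifts were not given in the sources used here. Each deposited peak has a score (10 times its −log10 q, cut to a whole number), a fold enrichment (a ratio) and a −log10 p and −log10 q from the authors' caller, used here only to rank or filter peaks. Read depth is unknown, and the number of libraries limits the precision.

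Covered bp were summed per gene locus (10 kb flanks), start-site window and cluster window, on deposited and equal-length lists. Loci with a mean of 500 bp (pseudocount 200) and start windows with 100 bp (pseudocount 50) were tested with limma 3.58.1 (trend, robust) in R 4.3.3 over all genes, after a check on simulated data, and single values with exact permutation tests (scipy 1.17.1, Python 3.11.15). Starts came from the RefSeq promoter table for 22 Hox genes and from the 5′ end of the gene span, on the strand shared by the cluster, for the other 17. Regions merge peaks that overlap by 1 bp.

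Named genes were, per cluster, the 2 starts with the highest and the 2 with the lowest coverage, per fit the 3 smallest p in each direction, the strongest region per cluster, up to 5 regions seen in one age alone (a sixth is given besides), and called or smallest-p members of the gene lists. The values of some genes are not reported here. Members and lists were chosen with earlier results of these data known. Lists were also read for endothelial, T and NK cell, neutrophil, erythroid and progenitor markers, none of which had a called locus.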

Additional observations from a re-analysis of the deposited data

How the results depend on the processing

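The count of Hox calls was 0 under each alternative pseudocount, scaling, filter, window, peak threshold and list length in all 3 fits, also when, as an alternative chosen after seeing the data, the covered length of each library entered as a covariate; leaving out 1 library gave 0 to 1 calls lower in old on the deposited loci and 0 elsewhere. Same-numbered libraries did not deviate together more than others (r = 0.14, 0.14 and -0.16 at deposited loci, against -0.33 to 0.27 for the other pairs). With 3 libraries per age this check cannot show whether same-numbered libraries were prepared together. With the replicate block 0 Hox genes and 0 TALE cofactors were called. The TALE count of 3 became 0 with no scaling, 25000 or 100000 peaks or the covariate, 1 with a pseudocount divided by 5 or a 2 kb window, 4 with a pseudocount times 5, 2 with quantile normalization, 3 with no filter, and 0 to 2 without 1 library. The start-window difference of Hoxc5 changed sign (0.85 on equal-length lists). HoxD minus HoxB was -0.46 points at a 50 kb flank, -0.33 without Hoxb13 and at a −log10 q of 5, and -0.29 on equal-length lists. 

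Cluster differences on deposited lists moved for HoxA to -0.07 (50 kb flank), -0.17 (no scaling) and 0.23 (−log10 q of 5; peak number 0.27), for HoxB to -0.67 (peak number -0.40) at that threshold, for HoxC to -0.15 (no scaling) and 0.07 (peak number 0.09), and for HoxD peak number to -0.27 at a −log10 q of 2 and -0.77 at 5. On equal-length lists, 25000 peaks gave -0.50 for HoxA (peak number -0.55), -0.68 for HoxB peak number, 1.41 for HoxC (0.74) and 0.05 for HoxD (0.58), and 100000 peaks gave 0.01 for HoxB (0.16) and 0.24 for HoxD (0.14); a 50 kb flank gave -0.04 for HoxD (-0.22). Regions in young libraries alone numbered 2 and 1 at a −log10 q of 2 and 5, and 0 on equal-length lists. The cause of these shifts was not tested. With read depth unknown, a start without a called peak is not shown to be closed.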
